A study of Mus musculus with 6 samples.

Results

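The genes described here are *Trim30a*, *Trim30b*, *Trim30c*, *Trim30d*, *Trim12a*, *Trim12c*, *Trim34a*, and *Trim34b*, a run of related tripartite-motif genes on mouse chromosome 7. They were taken by name, with earlier results of these data known, and all 8 were found among the 54232 genes of the deposited tables. The libraries came from 3 WT and 3 Ifnar1-/- samples of Ly6C-high monocytes sorted from the CNS of mice with EAE, a model of multiple sclerosis. Irradiated GFP+ recipients had been given marrow of WT donors, which carry CD45.1, and of Ifnar1-/- donors, which carry CD45.2, in equal parts, were immunized 6 to 7 weeks later, and were all given 30000 IU of IFN-β daily. The Ifnar1-/- cells lack a chain of the receptor used by all type I IFNs, so cells able and unable to respond were compared inside treated mice, and no library came from an untreated mouse. Receptor genotype and donor origin cannot be told apart, because every WT cell was CD45.1 and every Ifnar1-/- cell was CD45.2. The study describes the recipients as a group of 3, each holding cells of both genotypes, and 3 RNA samples of each genotype. The labels do not say which libraries came from the same recipient, so genotypes were compared without pairing and p-values measure the spread between these libraries.

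TRIM proteins share a RING domain that gives many of them ubiquitin ligase activity, a B-box, and a coiled coil, and those of this cluster mostly end in a SPRY domain that binds a target. TRIM5 and TRIM34 are known as restriction factors that act on incoming retroviral capsids, and the *Trim12* genes are mouse relatives of *Trim5*. TRIM30a is known to be induced by type I IFN and TLR ligands, and to restrain NF-κB signaling by promoting degradation of the adaptors TAB2 and TAB3. Type I IFN acts through a complex that includes STAT2 and IRF9 and binds the interferon-stimulated response element (ISRE) of its target genes, while the gamma-activated sequence (GAS) is a separate element known from the response to IFN-γ.

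The 8 genes span 263.4 kb (GRCm38, chromosome 7, 104244457 to 104507849), and GENCODE M21 annotates each of them as protein coding. *Trim34a* (ENSMUSG00000056144.14, 104244457 to 104262234) and *Trim34b* (ENSMUSG00000090215.9, 104329471 to 104336909) lie on the plus strand. *Trim12a* (ENSMUSG00000066258.13, 104299894 to 104315466) and *Trim12c* (ENSMUSG00000057143.15, 104338754 to 104353362) lie on the minus strand. *Trim30b* (ENSMUSG00000052749.9, 104355382 to 104369884), *Trim30c* (ENSMUSG00000078616.2, 104382065 to 104400837), *Trim30a* (ENSMUSG00000030921.17, 104409025 to 104465193), and *Trim30d* (ENSMUSG00000057596.13, 104470014 to 104507849) follow one another on the minus strand. *Trim5* lies inside this span, between *Trim34a* and *Trim12a*. *Trim6* flanks the cluster at the *Trim34a* end and the pseudogene *Trim30e-ps1* at the *Trim30d* end.

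**Figure D1:**
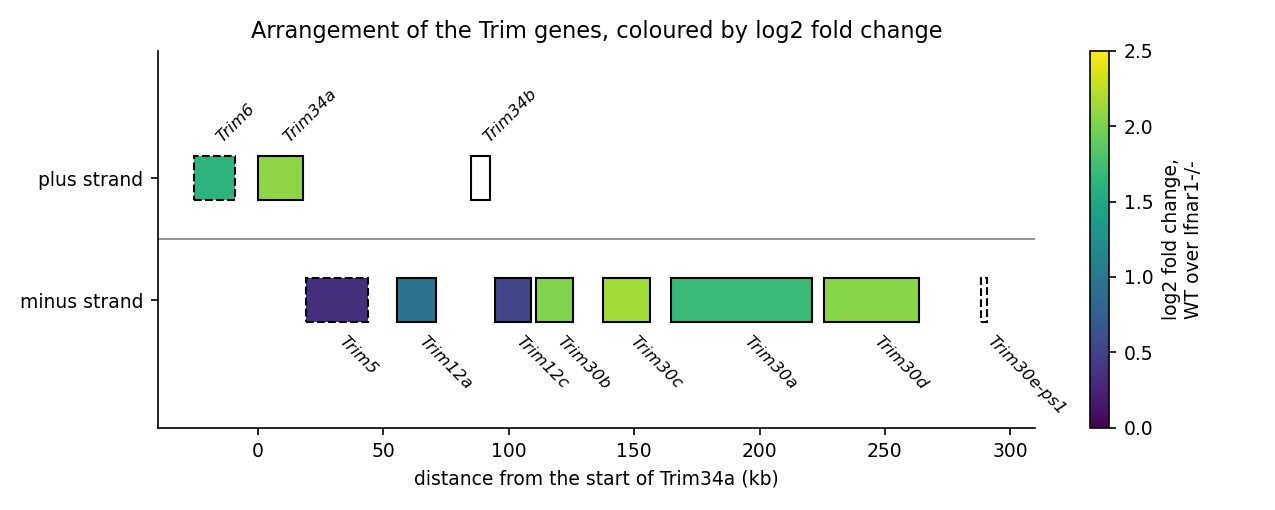
Gene bodies by distance in kb from the start of *Trim34a*, above the line for the plus strand and below it for the minus strand, coloured by the log2 fold change of WT over Ifnar1-/-. Solid outlines are the 8 genes described, dashed outlines are neighbouring genes (of which none was called), and white boxes were not tested. The *Trim30* genes and *Trim34a* have values from 1.68 to 2.15, and *Trim12a* and *Trim12c* have 0.96 and 0.52.

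RefSeq promoter windows (GRCm38.p6, 250 bases before to 50 bases after a start site) were found for all 8 genes and were searched on both strands for an ISRE core, taken as a pair of GAAA half-sites with any 2 bases between them. This motif was in the window of 5 of the 8 genes, against 3.99% of the 27025 genes with a window. The 5 genes were *Trim30a*, *Trim30d*, *Trim34a*, *Trim12a*, and *Trim12c*. The *Trim30a* and *Trim30d* windows are near copies, as are those of *Trim12a* and *Trim12c*, so the 5 are not independent matches. Stretches from base -80 to base 30 are shown for them and for *Trim30c*, a close copy without the motif, where base 1 is the first transcribed base, each sequence reads along the gene's own strand, and capitals mark the ISRE core. They lie at chr7:104465164-104465273, chr7:104507820-104507929, chr7:104400749-104400858, chr7:104244377-104244486, chr7:104315466-104315575, and chr7:104353320-104353429.
Trim30a: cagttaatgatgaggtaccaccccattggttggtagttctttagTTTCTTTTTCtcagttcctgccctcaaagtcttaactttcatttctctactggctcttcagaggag
Trim30d: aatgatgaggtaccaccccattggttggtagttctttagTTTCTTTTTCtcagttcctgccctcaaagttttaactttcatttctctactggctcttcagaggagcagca
Trim30c: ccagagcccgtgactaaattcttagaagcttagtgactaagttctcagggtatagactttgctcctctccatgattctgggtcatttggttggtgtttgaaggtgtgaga
Trim34a: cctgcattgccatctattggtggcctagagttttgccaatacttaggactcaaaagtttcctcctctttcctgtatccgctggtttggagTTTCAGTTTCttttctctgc
Trim12a: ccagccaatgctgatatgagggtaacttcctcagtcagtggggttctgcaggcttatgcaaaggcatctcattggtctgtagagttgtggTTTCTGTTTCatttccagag
Trim12c: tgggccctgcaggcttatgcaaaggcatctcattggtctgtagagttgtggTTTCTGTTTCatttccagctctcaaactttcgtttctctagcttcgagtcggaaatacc

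In all of these the motif read as its reverse complement along the gene. It occupied bases -36 to -27 in *Trim30a*, -41 to -32 in *Trim30d*, and -29 to -20 in *Trim12c*, and bases 11 to 20 in both *Trim34a* and *Trim12a*. A second *Trim30a* start site also had it, at bases 3 to 12. The *Trim30a* and *Trim30d* windows were 93.6% identical over 295 aligned bases, and the *Trim12a* and *Trim12c* windows were 95.0% identical over 260. The *Trim30c* window was 86.4% identical to that of *Trim30a* over 191 aligned bases. It held no ISRE core and was the only window of the 8 genes with a match to the GAS letters TTCNNNGAA, which 9.55% of all genes had. The windows of *Trim30b* and *Trim34b* held neither motif. For *Trim30b* the RefSeq start lies inside the gene as GENCODE annotates it, so that window does not cover the GENCODE start. A match of letters does not show that a factor bound there.

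**Figure D2:**
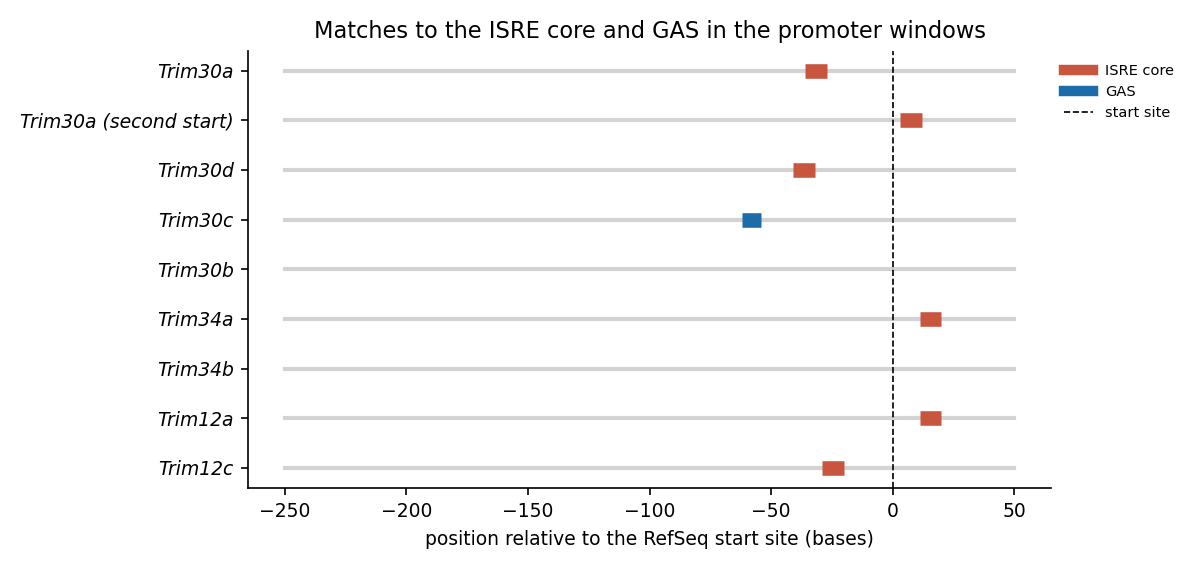
Matches to the ISRE core (red) and GAS (blue) in each RefSeq promoter window, by position in bases relative to the start site (dashed line). All red matches lie within 41 bases before or 20 bases after the start, at both start sites of *Trim30a*, among the windows of the 8 genes drawn here, and the *Trim30c* window holds a GAS match alone.

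In WT monocytes, 6 of the 8 genes were expressed above the level in Ifnar1-/- monocytes: *Trim30a*, *Trim30b*, *Trim30c*, *Trim30d*, *Trim34a*, and *Trim12a*. Their differences ran from 1.94-fold for *Trim12a* to 4.44-fold for *Trim30c*. None was lower in WT. The calls came from the edgeR quasi-likelihood test over 11254 genes, where a call needed an adjusted p no higher than 0.05 together with a 1.5-fold difference. By this rule 1.67% of all tested genes were upregulated in WT and 0.462% were downregulated, 2.13% in either direction. The genes were chosen with earlier results known, so setting them beside these shares is a description and not a test. *Trim12c* was tested and not called, and *Trim34b* did not pass the filter on low counts. For the 7 genes that passed the filter, every WT library lay above every Ifnar1-/- library, as it did for 11.1% of all tested genes. For a single gene, a two-sided exact permutation test of 3 libraries against 3 cannot give a p below 0.1, and each of these 7 genes gave 0.1. Since these were bulk samples, more cells that express a gene and more RNA per cell cannot be told apart.

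*Trim30a*, the TLR regulator described above, had 279, 222, and 217 normalized CPM (CPM after TMM scaling of the library total) in WT libraries 1, 2, and 3. In Ifnar1-/- libraries 1, 2, and 3 it had 93.5, 62.7, and 67.9. All Ifnar1-/- libraries retained the transcript, and in normalized CPM WT library 1 and Ifnar1-/- library 1 were each the highest of their group. The difference was 3.21-fold, a log2 fold change of 1.68 (SE 0.19, edgeR adjusted p = 0.000827).

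*Trim30d*, its neighbour and nearest copy in promoter sequence, had 89.2, 56.8, and 64.8 normalized CPM in WT and 18.0, 18.5, and 14.2 in Ifnar1-/- libraries. The Ifnar1-/- libraries were close together, and in normalized CPM the spread lay mainly in WT library 1. The difference was 4.16-fold, a log2 fold change of 2.06 (SE 0.20, edgeR adjusted p = 0.000305). The annotated pseudogene *Gm16464* overlaps *Trim30d* on the same strand and had 5.10 to 6.40 normalized CPM in WT and 1.10 to 2.75 in Ifnar1-/- libraries.

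*Trim30b* had 26.9, 20.2, and 19.2 normalized CPM in WT and 6.57, 5.08, and 4.60 in Ifnar1-/- libraries. It was 4.06-fold higher in WT, a log2 fold change of 2.02 (SE 0.23, edgeR adjusted p = 0.000850). The groups were well apart, and WT library 1 was the highest in normalized CPM.

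*Trim30c* had 37.6, 25.5, and 21.5 normalized CPM in WT and 12.4, 2.54, and 3.86 in Ifnar1-/- libraries. Ifnar1-/- library 1 stood apart from the others of its group. The log2 fold change was 2.15 with the widest error of the cluster (SE 0.46, edgeR adjusted p = 0.0416). Without Ifnar1-/- library 1 it was 3.16 (adjusted p = 0.00272), and without any other single library the call was lost, with log2 fold changes from 1.79 to 2.33 and adjusted p from 0.0579 to 0.136. In normalized CPM the same Ifnar1-/- library was also the highest of its group for *Trim30a*, *Trim30b*, *Trim12a*, and *Trim12c*, but not for *Trim30d* or *Trim34a*.

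*Trim34a*, a relative of the capsid-binding factors, had 31.6, 26.4, and 25.5 normalized CPM in WT and 6.11, 6.61, and 7.17 in Ifnar1-/- libraries. Both groups were tight, and the difference had the smallest p-value of the 7 tested genes (log2 fold change 2.07, 4.20-fold, SE 0.19, edgeR adjusted p = 0.000182). *Trim34b* had expected counts of 1.54, 0, and 3.15 in WT and 0, 1.46, and 0 in Ifnar1-/- libraries. After rounding these lie at or under the floor of 3 counts taken for detection, so no fold change is given.

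*Trim12a* had 34.4, 32.1, and 33.0 normalized CPM in WT and 19.6, 18.8, and 12.7 in Ifnar1-/- libraries. The groups did not overlap, but the difference was smaller than for the *Trim30* genes, at 1.94-fold (log2 fold change 0.96, SE 0.19, edgeR adjusted p = 0.0262). The call was lost on removing any 1 of the 6 libraries, with log2 fold changes from 0.81 to 1.09 and adjusted p from 0.0541 to 0.0770. It was also lost in limma on TPM, with a log2 fold change of 1.02 (adjusted p = 0.196). *Trim12c* had 33.2, 25.3, and 29.0 normalized CPM in WT and 22.6, 20.3, and 18.0 in Ifnar1-/- libraries. Its WT values were 1.44-fold higher, a log2 fold change of 0.52 that did not pass the test (SE 0.17, edgeR adjusted p = 0.152). Both *Trim12* windows held the ISRE core.

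**Figure D3:**
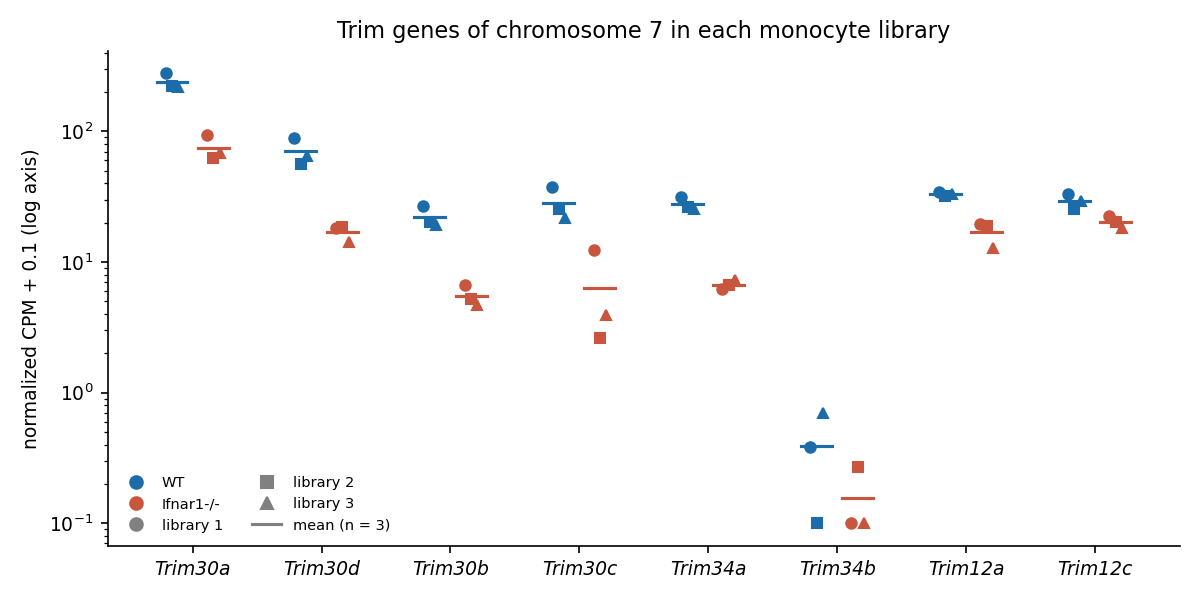
Normalized CPM of the 8 genes in each library, plotted as the value plus 0.1 on a log axis, with WT in blue, Ifnar1-/- in red, symbols for libraries 1 to 3, and a line at the mean of 3. The blue and red points are separate for every gene but *Trim34b*, with the narrowest gap for *Trim12c*, and the Ifnar1-/- library 1 point of *Trim30c* lies apart at 12.4.

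RSEM divides reads that match several genes among them, so the similarity of the copies bears on these values. Of all sequences of 75 bases, the read length, in its annotated transcripts, *Trim34a* shared 48.6% with another gene (29.5% with *Trim34b* and 19.0% with the overlapping antisense gene *Gm47248*), *Trim12c* 17.3% (12.8% with *Trim5*), *Trim12a* 5.58%, *Trim30d* 5.40%, and *Trim30a* 4.98%. *Trim30b* shared 0.390% and *Trim30c* none, and both had whole expected counts in all 6 libraries. These shares are for single stretches of 75 bases, while the study names paired-end reads, and sharing by read pairs was not counted. Sums over copies do not depend on how reads were divided within a sum.

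The 4 *Trim30* genes summed to 433, 325, and 323 normalized CPM in WT and 130, 88.8, and 90.5 in Ifnar1-/- libraries, a log2 fold change of 1.80 (SE 0.20, edgeR adjusted p = 0.000786). Both *Trim34* genes summed to a log2 fold change of 2.07 (SE 0.19, edgeR adjusted p = 0.000170). This sum does not hold *Gm47248*, so it would depend on how any reads shared with that gene were divided. In the 3 libraries where *Trim34b* had 0 counts, the expected count of *Trim34a* was whole. The *Trim12* genes summed to 67.6, 57.4, and 62.0 normalized CPM in WT and 42.0, 39.3, and 30.7 in Ifnar1-/- libraries, a log2 fold change of 0.74 (SE 0.16, edgeR adjusted p = 0.0404). Adding *Trim5* to that sum, an alternative chosen after seeing the data, gave 0.69 (edgeR adjusted p = 0.0542), which did not pass. The replicate number as a block gave 0.75 for the *Trim12* sum (edgeR adjusted p = 0.0522), which did not pass either. Leaving out any 1 library also ended this call, with log2 fold changes from 0.64 to 0.85. All 8 genes together had a log2 fold change of 1.61 (SE 0.18, edgeR adjusted p = 0.000967).

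Whether the genes differed from one another in response was examined through the log2 ratio of normalized CPM of a pair of genes within each library. Of 21 pairs among the 7 tested genes, 13 had ratios that did not overlap between the groups, against 22.6% of all pairs of tested genes. The pairs reuse the same 7 genes, so they are not independent. These genes were chosen with earlier results known, so setting them beside that share is a description and not a test. All 10 pairs of a *Trim12* gene with a *Trim30* gene or *Trim34a* were among them. The ratios of *Trim12c* to *Trim30d* lay at -1.24 ± 0.15 in WT and at 0.26 ± 0.11 in Ifnar1-/- libraries on the log2 scale, each a mean ± SD of 3 libraries, as below. *Trim12a* against *Trim30a* gave -2.83 ± 0.16 against -2.10 ± 0.35. *Trim12a* against *Trim12c* also did not overlap, at 0.19 ± 0.14 and -0.27 ± 0.20. Among the 10 pairs without a *Trim12* gene, 2 did not overlap, those of *Trim30a* with *Trim30b* and with *Trim34a*, by 0.24 and 0.30 on the log2 scale. The ratio of *Trim30a* to *Trim30d* overlapped, at 1.78 ± 0.16 and 2.10 ± 0.32. No pair could pass a two-sided exact permutation test, since 3 libraries against 3 cannot give a p below 0.1. The smallest p of this test was 0.1 and became 0.162 after Benjamini-Hochberg adjustment over the 21 pairs.

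**Figure D4:**
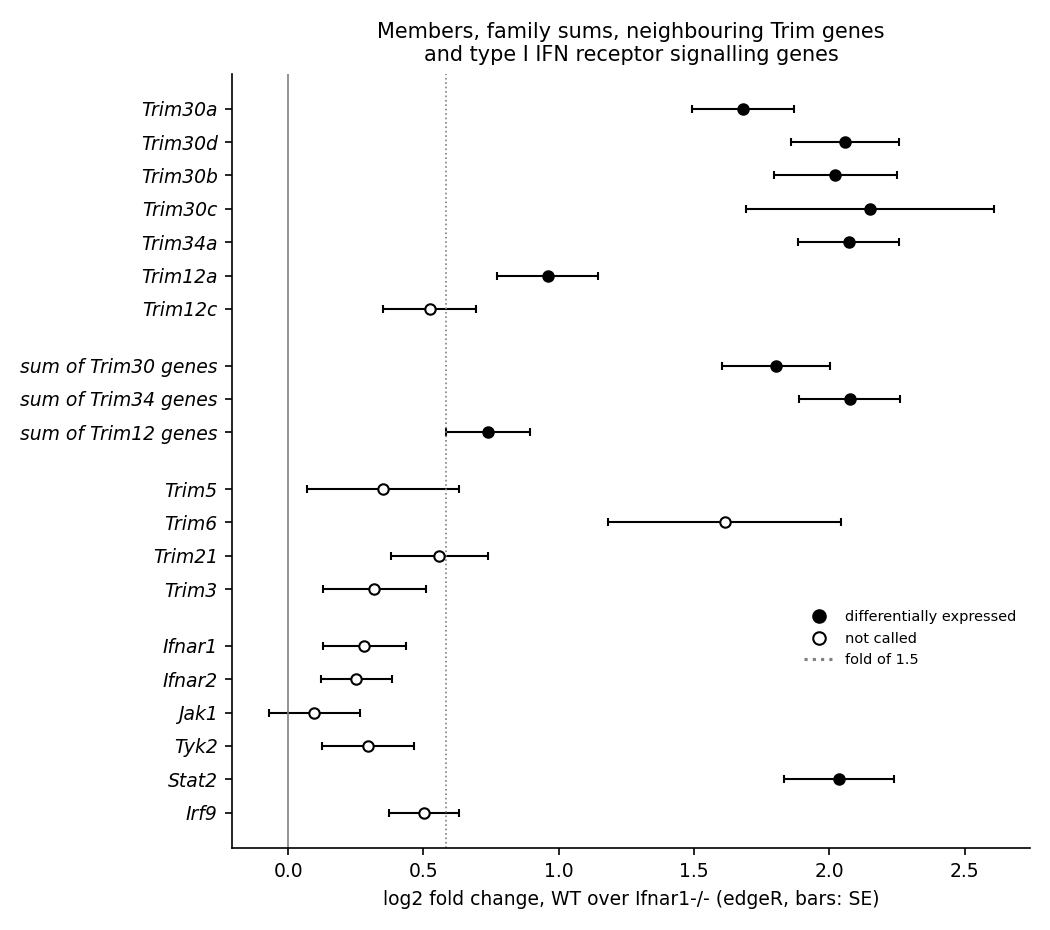
Log2 fold changes of WT over Ifnar1-/- with their SE from edgeR for the 7 tested genes, the sums over copies, neighbouring *Trim* genes, and 6 type I IFN receptor signaling genes; filled points were differentially expressed and the dotted line marks a fold of 1.5. *Trim30* genes, *Trim34a*, and *Stat2* lie between 1.68 and 2.15, *Trim12a* at 0.96, and *Trim12c* at 0.52.

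Levels of different genes were compared per transcript length with the deposited TPM. In WT libraries *Trim30a* was the most abundant (55.3 to 64.0 TPM), followed by *Trim30d* (28.6 to 33.5), *Trim12a* (20.1 to 24.3), *Trim30c* (14.6 to 17.5), *Trim34a* (10.7 to 13.5), *Trim12c* (7.63 to 9.74), *Trim30b* (5.70 to 6.06), and *Trim34b* (0 to 0.48). No neighbours in this order overlapped in range. The order of libraries within WT depended on the measure. WT library 1, the highest in normalized CPM for *Trim30a*, *Trim30b*, and *Trim30d*, was the lowest in TPM for *Trim30a* (55.3) and *Trim30b* (5.70). For *Trim30d* it lay between the others in TPM, at 29.7. In Ifnar1-/- libraries *Trim30a* was again first (16.5 to 22.6 TPM), and *Trim12a* came second (7.69 to 14.7), overlapping *Trim30d* (6.07 to 9.32), which overlapped *Trim12c* (5.48 to 6.56). *Trim34a* (2.62 to 3.45), *Trim30c* (1.67 to 6.98), and *Trim30b* (1.28 to 2.27) followed, and *Trim30c*, for its library 1, overlapped both of these as well as *Trim30d* and *Trim12c*. As a share of the summed TPM of the 8 genes, the *Trim12* genes took 18.9% to 20.6% in WT and 30.3% to 38.1% in Ifnar1-/- libraries. The *Trim30* genes took 71.5% to 73.8% in WT and 55.4% to 65.3% in Ifnar1-/- libraries, while *Trim30a* alone took 37.7% to 39.6% and 31.6% to 38.9%.

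**Figure D5:**
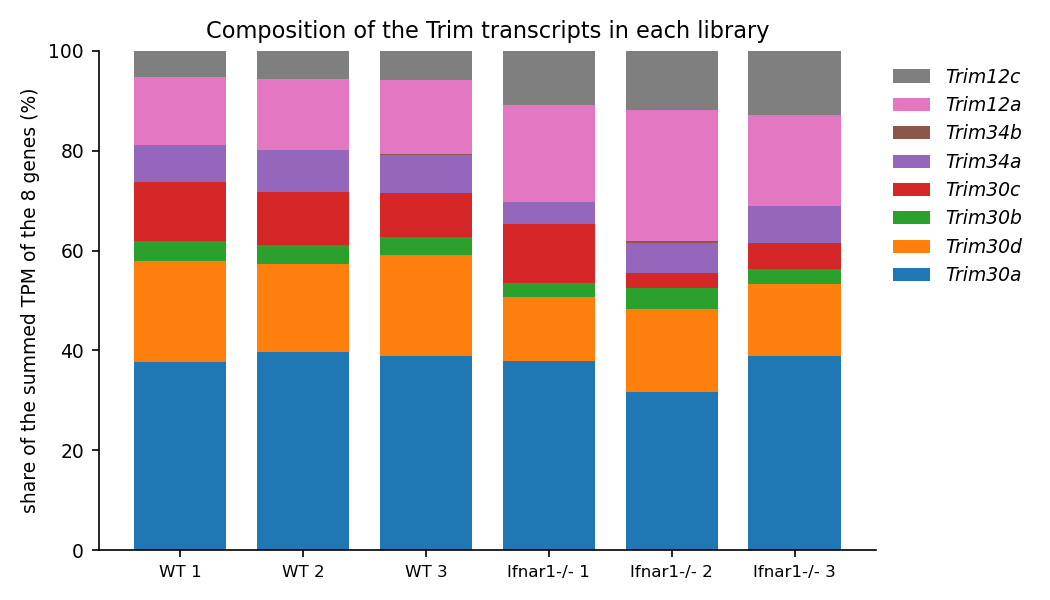
Share of each gene in the summed TPM of the 8 genes, one bar per library, in percent. The *Trim12a* and *Trim12c* segments at the top are wider in all 3 Ifnar1-/- bars, and the *Trim30d* segment is wider in all 3 WT bars.

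Of 6 other *Trim* genes of chromosome 7, 4 were tested and none was differentially expressed in edgeR, while 2 had an unadjusted p under 0.05. DESeq2 and limma-voom also called none. Without a filter on low counts edgeR called *Trim6* (log2 fold change 1.61, adjusted p = 0.0129), and with GC and length offsets and a replicate block it called *Trim21* (0.63, adjusted p = 0.0471). *Trim6*, next to *Trim34a*, had 5.55, 2.34, and 4.94 normalized CPM in WT and 1.07, 1.69, and 1.47 in Ifnar1-/- libraries, a log2 fold change of 1.61 (SE 0.43, edgeR adjusted p = 0.0940). *Trim5*, between *Trim34a* and *Trim12a*, had 7.65 to 9.08 in WT and 4.97 to 9.15 in Ifnar1-/- libraries, which overlapped (log2 fold change 0.35, edgeR adjusted p = 0.555). The *Trim5* window was 100% identical to that of *Trim12a* over 241 aligned bases and also held an ISRE core. *Trim21*, the gene of a cytosolic antibody receptor, was 1.47-fold higher in WT (edgeR adjusted p = 0.148), and *Trim3* 1.25-fold (edgeR adjusted p = 0.412). *Trim68* and *Trim30e-ps1* had too few counts to be tested. Within 300 kb of the cluster the tables listed 53 other genes, 32 of them olfactory receptors, and 8 of the 53 had any count.

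Of the 7 genes listed for type I IFN receptor signaling, 1 was upregulated, against 1.67% of all tested genes. For 4 of the 7 every WT library lay above every Ifnar1-/- library, as for 11.1% of all tested genes. The unadjusted edgeR p was under 0.05 for 2 of the 7. *Stat2* had 189, 123, and 139 normalized CPM in the WT libraries and 30.9, 44.1, and 35.3 in Ifnar1-/- libraries, 4.10-fold higher in WT (log2 fold change 2.04, edgeR adjusted p = 0.000347). *Irf9* was 1.42-fold higher in WT (edgeR adjusted p = 0.0842), which did not pass. *Ifnar1* itself, the deleted gene, had 153, 126, and 111 in WT and 110, 102, and 109 in Ifnar1-/- libraries (1.22-fold, edgeR adjusted p = 0.360), and gene-level counts cannot tell whether the deleted part was transcribed. The median log2 fold change of the list was 0.28, against -0.01 for all tested genes.

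Of 19 genes of TLR, NF-κB, and inflammasome signaling, where TRIM30a is known to act, none was differentially expressed in edgeR, DESeq2, or limma-voom, and 1 had an unadjusted p under 0.05. *Tab2* had 102 to 124 normalized CPM in WT and 96.4 to 103 in Ifnar1-/- libraries (log2 fold change 0.15, edgeR adjusted p = 0.617). *Tab3* had 13.7 to 16.2 in WT and 17.1 to 18.5 in Ifnar1-/- libraries, with a log2 fold change of -0.30 (edgeR adjusted p = 0.395). *Rela*, the gene with an unadjusted p under 0.05, had a log2 fold change of 0.53 (edgeR adjusted p = 0.132). *Nlrp3* (0.05) and *Il1b* (-0.38) had log2 fold changes with adjusted p of 0.930 and 0.463. The median log2 fold change of the list was 0.04. These are transcript levels and do not measure the proteins that TRIM30a acts on.

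By Pearson's r with the summed cluster over the 6 libraries (log2 of normalized CPM plus 0.5), the genes most alike among 195 other called genes with a mean of at least 10 normalized CPM were *Rsad2* (0.995), *Isg20* (0.995), *Ifit1bl1* (0.993), *Gm6545* (0.993), and *Oas1g* (0.993). *Rsad2* encodes the antiviral protein viperin and *Isg20* an exonuclease. The libraries fall into WT and Ifnar1-/- groups, and the candidates were called between these groups, so high values are set largely by that difference. Their log2 fold changes, from 3.87 for *Isg20* to 5.54 for *Oas1g*, were larger than that of any gene of the cluster.

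Totals ranged from 4531782 to 7321380 expected counts per library, and mitochondrial ribosomal RNA took 12.3% to 17.6% in WT and 15.1% to 22.7% in Ifnar1-/- libraries. Of the monocyte markers, the sort marker *Ly6c2* was 2.65-fold higher in WT (640 to 788 against 177 to 337 normalized CPM, edgeR adjusted p = 0.00957), and it was the only one of 7 called, while 3 had an unadjusted p under 0.05. *Ccr2*, the chemokine receptor of these cells, had 587 to 694 normalized CPM in WT and 794 to 1269 in Ifnar1-/- libraries, which did not overlap (log2 fold change -0.62, edgeR adjusted p = 0.143). *Fcgr1* had 272 to 413 in WT and 192 to 203 in Ifnar1-/- libraries, also without overlap (log2 fold change 0.71, edgeR adjusted p = 0.0839). *Itgam*, *Ptprc*, *Csf1r*, and *Lyz2* were present in all libraries and overlapped. Markers of T cells summed to 16.8 to 40.8 normalized CPM in WT and 6.78 to 15.1 in Ifnar1-/- libraries. For 4 of these 6 every WT library lay above every Ifnar1-/- library, as for 11.1% of all tested genes. In edgeR 0 of the 5 tested were called, and 5 had an unadjusted p under 0.05. Markers of neutrophils (219 to 1207 against 595 to 1613) and microglia (245 to 321 against 287 to 365) overlapped between the groups, with *Ly6g* at most 4 counts and *Sall1* at most 7 in any library. *Cd79a*, *Ms4a1*, *Ncr1*, and *Klre1* had at most 2 counts in any library. The summed B cell markers, almost all *Cd79b*, were at 1.49 to 1.71 normalized CPM in WT and 0.305 to 1.10 in Ifnar1-/- libraries, and the NK cell markers at 2.76 to 9.08 and 1.02 to 3.05. Among the latter, *Gzma* had 2.34 to 7.70 in WT and 0.368 to 3.05 in Ifnar1-/- libraries and was not called (log2 fold change 1.62, edgeR unadjusted p = 0.0314, adjusted p = 0.229). Of the plasmacytoid dendritic cell markers, *Klk1* and *Cox6a2* had at most 2 counts, *Siglech* at most 10, and *Ccr9* at most 16, and all of these overlapped between the groups. *Bst2*, which type I IFN induces in many cells, was 4.28-fold higher in WT (edgeR adjusted p = 0.00325). The part of these other cells in the results was not tested.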

How the data were processed

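RNA from sorted monocytes was sequenced in 3 libraries of WT and 3 of Ifnar1-/- cells, with groups taken from the labels. The submitters' processing notes name STAR 2.6.0c, RSEM 1.2.31, and GRCm38. The deposited labels and the study's methods name different stranded library kits, and whether reads were counted by strand is not given in the sources used here. The authors deposited RSEM expected counts, which are estimated and not normalized, and TPM, which the authors' RSEM run scales by length and to one total per library. The FPKM that the authors also deposited were not used. The members and lists were chosen with earlier results of these data known.

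Expected counts were rounded. Gene identifiers were matched without version to GENCODE M21 (54165 of 54232 matched). WT and Ifnar1-/- libraries were compared with edgeR 4.0.16 in R 4.3.3 (TMM, filterByExpr with a minimum count of 10, quasi-likelihood test, Benjamini-Hochberg adjustment over the 11254 genes tested of 21265 with any count), without a block. The SE is the log2 fold change divided by the square root of F. For sums, copies were added up before the fit. Named genes were the members, the neighbouring and pathway genes and markers listed in the text, and the 5 called genes most alike the summed members. *Gm16464* was named for its overlap. Some genes of the lists are counted but not reported singly here. The test was checked on simulated counts. The alternatives tried were limma-voom (limma 3.58.1), DESeq2 (the study's tool, here in version 1.42.0), RLE normalization, other filters, removal of mitochondrial and ribosomal RNA genes, unrounded counts, limma on log2(TPM + 0.1), an adjusted p alone, a replicate block, and each library left out; GC and length offsets and the sum with *Trim5* were chosen after seeing the data. Depth ranged from 4531782 to 7321380 counts, where 3 counts, the detection floor, equal 0.410 to 0.662 CPM; such floors cover counting error only. Promoter windows were aligned with Biopython 1.88, end gaps free, and identities are given over at least 150 aligned bases.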

Additional observations from a re-analysis of the deposited data

How the results depend on the processing

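Under 20 alternative settings, 186 of 206 log2 fold changes of single genes and sums kept their direction and their side of the threshold, 20 lost their call, and none reversed. *Trim30a*, *Trim30b*, *Trim30d*, *Trim34a*, the *Trim30* and *Trim34* sums, and the sum of all 8 genes passed under every setting run. The number of genes of the cluster called was 6 in all settings but TPM with limma (5, without *Trim12a*, whose log2 fold change was 1.02 there, adjusted p = 0.196) and the fits that each left out 1 library (4 to 5). The log2 fold change of the *Trim12* sum was 0.75 with the replicate block (adjusted p = 0.0522) and 0.69 with *Trim5* in the sum, neither past the test, and 0.64 to 0.85 without 1 library. Such fits hold fewer samples. Of the neighbouring *Trim* genes, 1 was called without a filter on low counts (*Trim6*) and 1 with GC and length offsets and the block (*Trim21*), against 0 otherwise. Calls over all genes moved from 188 up and 52 down to 610 and 262 without the filter, to 314 and 105 with DESeq2, to 111 and 13 for TPM with limma, to 182 and 38 with the block, to 280 and 99 with the offsets and the block, and to 110 to 204 and 7 to 41 without 1 library. Pairs that did not overlap numbered 13 to 17 without 1 library, with 17 when Ifnar1-/- library 1 was left out. For replicate numbers 1, 2, and 3, the deviations of the WT and the Ifnar1-/- library correlated by 0.0906, 0.0278, and 0.276. Between libraries of different number the correlations ran from -0.196 to 0.0920. Deviations within a group of 3 are tied to one another, so these values cannot decide whether the numbers mark pairs. The main comparison was left unpaired because the labels do not state pairs, and the replicate block was an alternative. WT libraries 2 and 3 were each highest with their own number, and WT library 1 was about level between Ifnar1-/- libraries 1 and 2 (0.0906 and 0.0920). With no other change to the fit, the replicate block altered none of the calls on the 8 genes, the neighbours, and the sums except that on the *Trim12* sum. At these depths *Trim34b* could not be compared.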
